A study of Mus musculus with 12 samples.

Results

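Transcript levels of 9 meiosis genes, Dazl, Sycp1, Sycp2, Sycp3, Stag3, Smc1b, Hormad1, Tex15 and Tex101, were measured in mouse embryonic stem cells (mESCs). The 9 genes were taken by name from the 39017 genes of the deposited count table. They belong to a class of germline genes that are known to be held silent by DNA methylation of their promoters in cells outside the germline. DNA methylation was not analysed here, and the label "silenced" describes these cells only in part: all 9 genes had reads in all 12 libraries, and Stag3 stood above 80.0% of the 17885 tested genes in its lowest group.

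Poly(A) RNA was sequenced from cells of 2 lines in serum or in 2i medium. J1 cells are male and wild-type. 3B3-3l cells carry Dnmt3a-/- and Dnmt3b-/- alleles, which disrupt both endogenous de novo DNA methyltransferase genes, together with a Dnmt3b transgene and a Dnmt3l transgene, each driven by the constitutive CAG promoter. Serum medium held fetal calf serum and LIF, and 2i medium held the MEK inhibitor PD0325901, the GSK3 inhibitor CHIR99021 and LIF. 2i is known to lower DNA methylation in wild-type mESCs, and the transgenes of 3B3-3l were introduced to keep it up, so the comparison asks how genes behave when medium and methylation machinery are uncoupled. J1 cells in serum grew on inactivated feeder cells, removed by repeated plating before analysis, whereas 3B3-3l cells grew on gelatin. 3B3-3l was a selected transgenic line, so that line, transgenes and, in serum, growth surface cannot be told apart. Feeders are described for J1 in serum only, so in J1 a change of growth surface also goes with the change of medium. Each of the 4 groups, formed by line and medium, had 3 biological replicates.

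Meiosis reduces the chromosome number of germ cells. Before the first division, sister chromatids are tied by meiosis-specific cohesin and folded along a protein axis, homologous chromosomes break and recombine, and the synaptonemal complex zips them together. Many of these genes have promoters rich in CpG, the dinucleotide that DNA methyltransferases modify. In mESCs some are also bound by a variant polycomb repressive complex that contains MGA, MAX and E2F6, which recognise E-box and E2F letters.

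The promoters are shown first, because the transcription start is where methylation of this gene class is known to act. RefSeq windows of 300 bases on GRCm38.p6 (250 bases before the start and 50 after it) were matched for 8 of the 9 genes, all except Tex15. The start used was the outer 5′ end of the annotated gene for 6 of the 8, but for Stag3 it lay 7995 bases and for Sycp2 118 bases inside the gene, so that these 2 windows do not cover the outermost annotated start. The 5 windows printed here belong to the genes that moved most clearly in opposite directions, Dazl and Stag3 against Smc1b and Sycp3, and to Sycp2, whose window held the fewest CpG of the 8. They read 5′ to 3′ on the strand of the gene, with each CpG in capitals: Dazl on the minus strand at chr17:50293571-50293870, Stag3 on the plus strand at chr5:138280259-138280558, Smc1b on the minus strand at chr15:85131908-85132207, Sycp3 on the plus strand at chr10:88459337-88459636 and Sycp2 on the minus strand at chr2:178407609-178407908.
Dazl: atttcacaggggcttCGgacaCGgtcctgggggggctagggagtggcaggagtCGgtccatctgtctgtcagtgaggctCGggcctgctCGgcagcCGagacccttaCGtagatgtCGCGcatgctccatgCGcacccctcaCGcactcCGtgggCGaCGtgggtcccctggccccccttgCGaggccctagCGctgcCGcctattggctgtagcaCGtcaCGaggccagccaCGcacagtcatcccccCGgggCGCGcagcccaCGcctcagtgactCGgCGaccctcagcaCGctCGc
Stag3: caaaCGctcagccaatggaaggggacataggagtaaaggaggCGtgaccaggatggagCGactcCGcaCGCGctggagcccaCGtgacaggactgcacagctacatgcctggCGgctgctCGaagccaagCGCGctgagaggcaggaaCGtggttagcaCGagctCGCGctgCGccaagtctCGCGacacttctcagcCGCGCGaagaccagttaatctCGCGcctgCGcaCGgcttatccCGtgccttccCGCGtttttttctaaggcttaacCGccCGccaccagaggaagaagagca
Smc1b: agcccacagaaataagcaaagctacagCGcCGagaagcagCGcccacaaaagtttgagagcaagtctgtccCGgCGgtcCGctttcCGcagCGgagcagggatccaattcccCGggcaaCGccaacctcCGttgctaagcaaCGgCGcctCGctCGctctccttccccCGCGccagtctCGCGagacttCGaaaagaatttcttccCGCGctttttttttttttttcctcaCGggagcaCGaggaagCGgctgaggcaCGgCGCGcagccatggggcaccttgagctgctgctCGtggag
Sycp3: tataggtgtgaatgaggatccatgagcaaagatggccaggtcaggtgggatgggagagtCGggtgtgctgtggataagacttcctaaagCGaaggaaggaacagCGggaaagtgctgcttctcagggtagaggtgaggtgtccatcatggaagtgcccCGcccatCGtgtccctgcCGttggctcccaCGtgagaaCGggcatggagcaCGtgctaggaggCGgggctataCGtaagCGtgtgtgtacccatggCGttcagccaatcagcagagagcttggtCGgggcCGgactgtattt
Sycp2: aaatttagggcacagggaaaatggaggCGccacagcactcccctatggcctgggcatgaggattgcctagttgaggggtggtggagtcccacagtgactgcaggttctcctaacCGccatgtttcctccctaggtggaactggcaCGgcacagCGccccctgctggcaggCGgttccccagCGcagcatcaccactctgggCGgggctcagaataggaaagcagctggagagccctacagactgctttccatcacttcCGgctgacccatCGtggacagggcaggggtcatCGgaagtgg

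All 8 windows held more CpG than the median of 7 over all 32851 windows (quartiles 3 and 20). Stag3 held 30 CpG, more than 88.3% of all windows, Smc1b 29 and Dazl 28. Hormad1 held 24, Sycp1 21, Tex101 19 and Sycp3 15. Sycp2 held 10, more than 56.5% of all windows, and its ratio of observed to expected CpG was 0.363 against 1.06 for Stag3. The genes with the most CpG did not move as a block: of the 3 with 28 to 30 CpG, Dazl and Stag3 rose in 2i and Smc1b fell, in both lines.

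**Figure D1:**
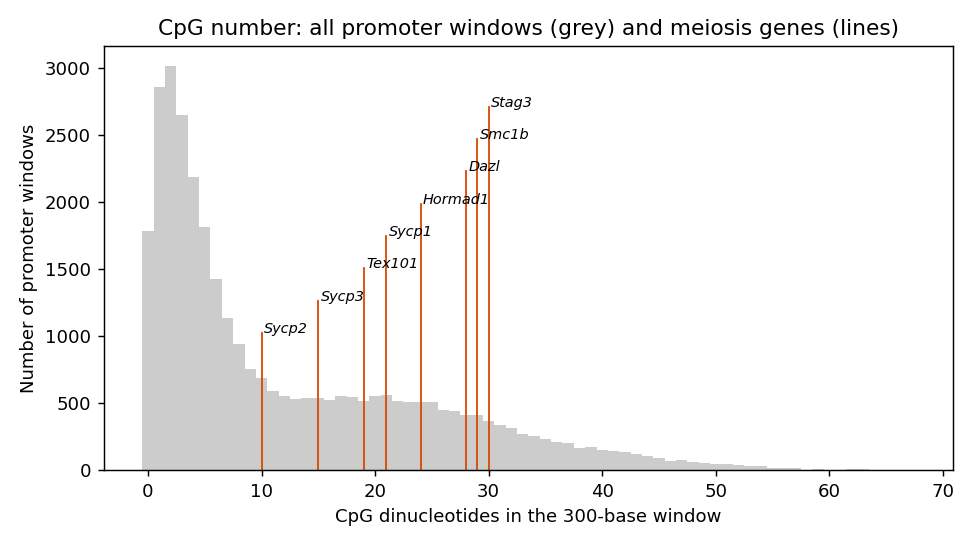
Number of CpG dinucleotides in 300-base promoter windows. Grey bars count all 32851 windows by CpG number, and orange lines mark the 8 meiosis genes with a window (line heights only separate the names). Sycp2 lies at 10 and Stag3 at 30, all 8 to the right of the median of 7.

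The E-box letters CACGTG, which read the same on both strands, occurred in 4 of the 8 windows and in 7.15% of all windows. Sycp3 and Hormad1 each held 2 copies, starting at positions 187 and 208 and at positions 194 and 231 of the window, where position 251 is the transcription start, while 0.594% of all windows held 2 or more. Sycp1 held 1 copy at position 157 and Stag3 1 copy at position 81. The E2F letters, TTCCCGC on one strand or GCGGGAA on the other, occurred in 4 of the 8 windows, those of Stag3 (position 248), Smc1b (203), Hormad1 (156) and Sycp3 (104), and in 4.6% of all windows. The 2 motifs share no letters in any of these windows. Each motif itself holds a CpG, and the share over all windows is not matched for CpG number, in which the 8 windows are above the median. Dazl, Sycp2 and Tex101 held neither, which says only that these letters are not in these windows.

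The targeted genes matched the labels. Dnmt3b stood at 44.1 ± 3.12 CPM in J1 2i and at 928 ± 12.7 CPM in 3B3-3l 2i (CPM is the count after scaling libraries to the same depth, mean ± SD, n = 3). Dnmt3l was also higher in 3B3-3l in 2i, by 2.46 ± 0.06 on the log2 scale (model standard error, edgeR adjusted p = 9.41e-13). Reads of Dnmt3a were reduced but present in 3B3-3l, at 32.1 ± 2.50 CPM in the serum group and 4.67 ± 0.585 CPM in the 2i group. The 12 libraries held 37050652 to 44515395 estimated reads, and no member fell under 6 counts in a library. The 9 embryonic stem cell markers summed to 4777 to 6640 CPM in every library, all 9 well above the floor of 3 counts. Of 9 markers of later germ cells, Pgk2 was at 0 counts in all 12 libraries and Nanos2 at or under 3 counts in every library, and the other 7 were read, with Uchl1 at 103, Clgn at 30.9 and Ddx4, an RNA helicase of the germline, at 15.9 CPM in J1 serum. In bulk RNA, a lower level cannot be told apart from fewer cells that express the gene.

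In 2i against serum, the 9 genes did not move together. In J1, Dazl and Stag3 rose, Sycp2, Sycp3, Smc1b, Tex15 and Tex101 fell, and Sycp1 and Hormad1 were not called (edgeR, threshold of 0.05 on the Benjamini-Hochberg adjusted p). That is 7 of 9 called, where 66.1% of all tested genes were called, 33.2% higher and 32.9% lower. In 3B3-3l, Dazl, Stag3 and Tex15 rose and Sycp2, Sycp3, Smc1b, Hormad1 and Tex101 fell, 8 of 9 where 65.4% of all genes were called, 32.7% higher and 32.7% lower.

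**Figure D2:**
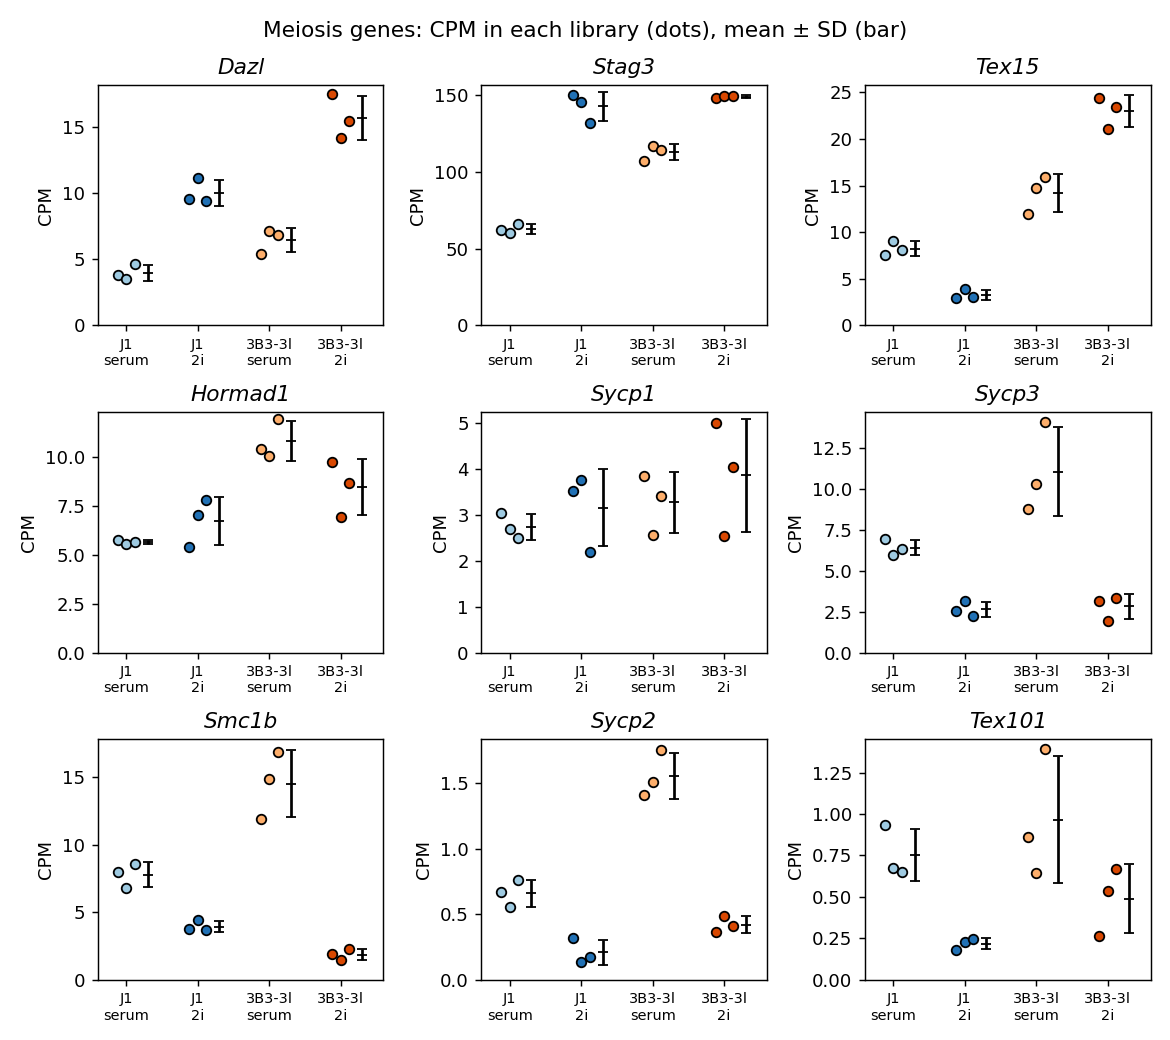
CPM of each meiosis gene (linear axes from 0, scaled per gene) in each of the 12 libraries as dots, with the group mean ± SD (n = 3) beside them. Smc1b, Sycp2 and Sycp3 are lowest in the 2i groups of both lines, and Tex15 is lowest in J1 2i and highest in 3B3-3l 2i.

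Dazl encodes an RNA-binding protein that licenses primordial germ cells for gametogenesis and controls translation of germline mRNAs (chr17:50279393-50293620, GRCm38, as for all genes named here). It was read at 3.82, 3.47 and 4.66 CPM in J1 serum and at 9.57, 11.1 and 9.37 CPM in J1 2i. In the other line it was read at 5.43, 7.10 and 6.82 CPM in 3B3-3l serum and at 17.5, 14.1 and 15.5 CPM in 3B3-3l 2i. The media did not overlap in either line, and every 3B3-3l library lay above every J1 library of the same medium. Dazl rose 2.53-fold in J1 (1.34 ± 0.13, edgeR adjusted p = 1.52e-07, log2 scale) and 2.43-fold in 3B3-3l (1.28 ± 0.12, edgeR adjusted p = 9.13e-08). The difference between these 2i effects was -0.06 ± 0.17 with an interval of -0.43 to 0.32 (edgeR adjusted p = 0.832).

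Stag3 encodes the meiosis-specific STAG subunit of cohesin, the ring complex that ties sister chromatids (chr5:138272514-138312397). It was read at 62.4, 59.9 and 66.3 CPM in J1 serum and at 150.0, 146 and 132 CPM in J1 2i. The 3B3-3l libraries held 107, 117 and 114 CPM in 3B3-3l serum and 148, 149.6 and 149.6 CPM in 3B3-3l 2i. Stag3 was the highest of the 9 genes in every library, and J1 serum lay far below the other 3 groups. It rose 2.27-fold in 2i in J1 (1.18 ± 0.06, edgeR adjusted p = 3.79e-11) and 1.32-fold in 3B3-3l (0.40 ± 0.06, edgeR adjusted p = 9.93e-06). The rise was smaller in 3B3-3l by 0.78 ± 0.08 on the log2 scale (edgeR adjusted p = 2.86e-06). In serum its level in 3B3-3l was 1.80 times that in J1, and in 2i the lines differed by 0.06 ± 0.06 (interval -0.05 to 0.18).

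Smc1b encodes the meiosis-specific SMC subunit that joins the same ring (chr15:85064689-85131957), yet its transcript moved the other way. It was read at 8.001, 6.80 and 8.56 CPM in J1 serum and at 3.74, 4.41 and 3.68 CPM in J1 2i. The 3B3-3l libraries held 11.9, 14.9 and 16.8 CPM in 3B3-3l serum and 1.90, 1.44 and 2.24 CPM in 3B3-3l 2i. 3B3-3l serum was the highest group and 3B3-3l 2i the lowest, with no overlap between any of the 4 groups. Smc1b was 1.97-fold lower in 2i in J1 (-0.98 ± 0.15, edgeR adjusted p = 2.48e-05) and 7.86-fold lower in 3B3-3l (-2.97 ± 0.17, edgeR adjusted p = 1.13e-10). The fall was larger in 3B3-3l, with a difference between the 2i effects of -1.99 ± 0.22 (edgeR adjusted p = 6.4e-06).

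Sycp3 and Sycp2 encode axis proteins that form the lateral elements of the synaptonemal complex, and both fell in 2i in both lines. Sycp3 (chr10:88459587-88473236) was read at 6.90, 5.98 and 6.34 CPM in J1 serum and at 2.53, 3.14 and 2.22 CPM in J1 2i. In 3B3-3l it was read at 8.74, 10.3 and 14.1 CPM in 3B3-3l serum and at 3.17, 1.92 and 3.35 CPM in 3B3-3l 2i. The 2i groups of the lines overlapped and both lay below both serum groups. Sycp3 was 2.43-fold lower in 2i in J1 (-1.28 ± 0.20, edgeR adjusted p = 3.59e-05) and 3.93-fold lower in 3B3-3l (-1.98 ± 0.20, edgeR adjusted p = 1.87e-07). The difference between the effects, -0.69 ± 0.28, was not called (edgeR adjusted p = 0.0686).

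Sycp2 (chr2:178345295-178407776) was the least abundant of the 9 genes per length. Its libraries held 0.669, 0.554 and 0.759 CPM in J1 serum and 0.319, 0.138 and 0.171 CPM in J1 2i, the latter from 6 to 14 counts. They held 1.41, 1.51 and 1.75 CPM in 3B3-3l serum and 0.361, 0.487 and 0.413 CPM in 3B3-3l 2i. No group overlapped another: 2i lay below serum in both lines, with 3B3-3l above J1 in each medium. The 2i effect was -1.65 ± 0.32 in J1 and -1.89 ± 0.25 in 3B3-3l (edgeR adjusted p = 0.000171 and 4.08e-06).

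Hormad1, a HORMA-domain protein of the unsynapsed axis that monitors pairing (chr3:95559677-95587863), showed small differences between media. It was read at 5.76, 5.57 and 5.64 CPM in J1 serum and at 5.40, 7.001 and 7.78 CPM in J1 2i. In 3B3-3l it was read at 10.4, 10.04 and 11.9 CPM in 3B3-3l serum and at 9.74, 6.93 and 8.66 CPM in 3B3-3l 2i. The J1 groups overlapped and the 3B3-3l groups did not, with 3B3-3l serum above all the others. The J1 effect of 0.25 ± 0.14 was not called (edgeR adjusted p = 0.123), but passed at 0.0183 without J1 2i replicate 1. In 3B3-3l it fell by 0.36 ± 0.13 (edgeR adjusted p = 0.023), but not without 3B3-3l serum replicate 3 (edgeR adjusted p = 0.0982) or without 3B3-3l 2i replicate 2 (edgeR adjusted p = 0.0926). The effects of the lines differed by -0.60 ± 0.19 (edgeR adjusted p = 0.0207), which missed the threshold without J1 2i replicate 3 (edgeR adjusted p = 0.0508) or 3B3-3l serum replicate 3 (edgeR adjusted p = 0.0515).

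Sycp1 forms the transverse filaments that bridge the paired axes (chr3:102818499-102936100). Its 12 libraries spanned 2.19 to 5.001 CPM and all 4 groups overlapped. No contrast was called, and the intervals were -0.30 to 0.71 for the 2i effect in J1 and -0.25 to 0.73 in 3B3-3l, so a change under about that size was not detectable here.

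Tex15, a germ cell protein needed for meiotic recombination and for piRNA-directed silencing of transposons (chr8:33516689-33592503), was the only one of the 9 called in opposite directions in the lines. It was read at 7.57, 9.09 and 8.08 CPM in J1 serum and at 2.89, 3.88 and 3.00 CPM in J1 2i. In 3B3-3l it was read at 11.9, 14.7 and 15.9 CPM in 3B3-3l serum and at 24.4, 21.1 and 23.4 CPM in 3B3-3l 2i. The 4 groups were fully separated, J1 2i lowest and 3B3-3l 2i highest. Tex15 was 2.53-fold lower in 2i in J1 (-1.34 ± 0.13, edgeR adjusted p = 2.34e-07) and 1.62-fold higher in 3B3-3l (0.69 ± 0.11, edgeR adjusted p = 3.14e-05). The difference between these effects was 2.03 ± 0.17 (edgeR adjusted p = 4.29e-07), and it ranged from 1.67 to 2.18 over the alternatives tried.

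Tex101, a surface glycoprotein of germ cells needed for sperm function (chr7:24668012-24672050), was near the low end in every group. It was read at 0.931, 0.675 and 0.650 CPM in J1 serum and at 0.182, 0.230 and 0.244 CPM in J1 2i. In 3B3-3l it was read at 0.861, 0.645 and 1.39 CPM in 3B3-3l serum and at 0.264, 0.533 and 0.670 CPM in 3B3-3l 2i, and these last groups overlapped. The 2i effect was -1.79 ± 0.41 in J1 (edgeR adjusted p = 0.000771) and -0.98 ± 0.33 in 3B3-3l (edgeR adjusted p = 0.0163). The second call was lost without 3B3-3l serum replicate 3 (edgeR adjusted p = 0.128) or without 3B3-3l 2i replicate 1 (edgeR adjusted p = 0.0854).

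**Figure D3:**
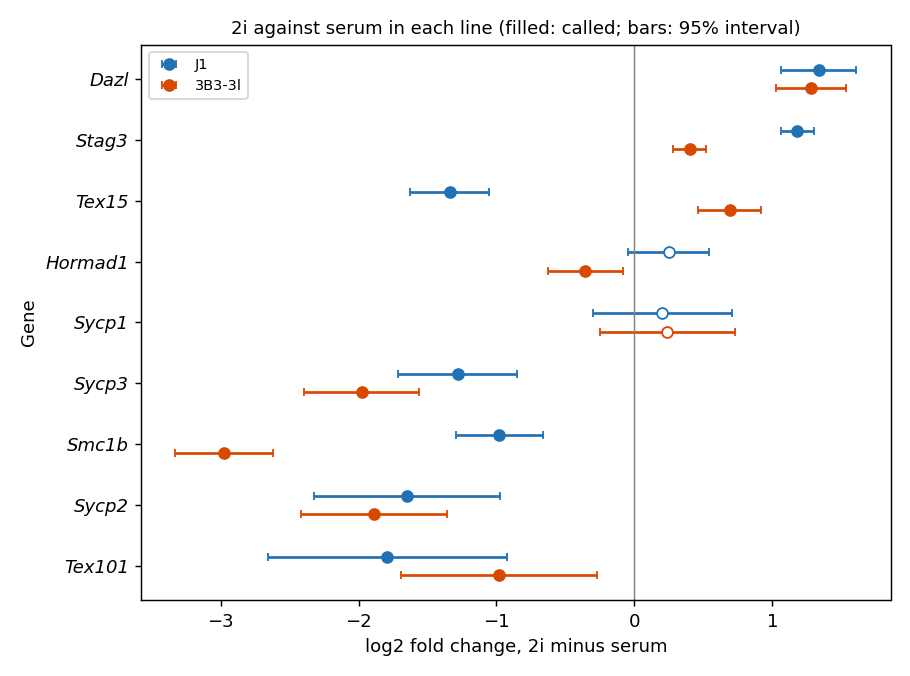
Log2 fold change of 2i against serum for each gene in J1 (blue) and 3B3-3l (orange), with 95% intervals from the edgeR fit (3 libraries a group). Filled points were called, and Tex15 lies at -1.34 in J1 and 0.69 in 3B3-3l.

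In all, 4 of the 9 genes, Stag3, Smc1b, Hormad1 and Tex15, had 2i effects called different between J1 and 3B3-3l. For this difference 34.7% of all genes were called (16.3% higher and 18.3% lower). Among the 4 genes, Tex15 had the more positive effect in 3B3-3l and the other 3 had the more negative one. For Dazl, Sycp1, Sycp2, Sycp3 and Tex101 no difference between lines was called, which does not show that the effects were equal. Feeders went with serum in J1 only, so their part in the differences between 2i effects cannot be told apart.

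Between the lines in serum, 7 of the 9 genes were higher in 3B3-3l and none lower, where 38.7% of all genes were called, 21.5% higher and 17.2% lower. The called genes were Sycp2 (1.24 ± 0.23), Hormad1 (0.93 ± 0.13), Smc1b (0.90 ± 0.13), Stag3 (0.84 ± 0.06), Tex15 (0.78 ± 0.12), Sycp3 (0.78 ± 0.18) and Dazl (0.70 ± 0.13). In edgeR the weakest of these was Sycp3 at an adjusted p of 0.00253 and the strongest Stag3 at 3.32e-08. The groups of the 7 called genes did not overlap, but how often this holds over all tested genes was not counted. The difference of Sycp1 was 0.25 ± 0.24 and that of Tex101 0.35 ± 0.31, with overlapping groups. The median over the 9 genes was 0.78, against 0.03 over all tested genes. Of the called genes only Sycp2 had an estimate of at least 2-fold, or 1 on the log2 scale. Its interval of 0.75 to 1.73 also held smaller changes.

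In 2i the lines differed in another way. Tex15 was 7.04-fold higher in 3B3-3l (2.82 ± 0.13, edgeR adjusted p = 1.72e-10) and Dazl 1.56-fold higher (0.65 ± 0.11, edgeR adjusted p = 0.000217). Smc1b was 2.13-fold lower (-1.09 ± 0.18, edgeR adjusted p = 0.000103), although in serum it was higher in 3B3-3l. Sycp2 and Tex101 were also higher in 3B3-3l (1.00 ± 0.33 and 1.16 ± 0.42, edgeR adjusted p = 0.0191 and 0.0321), both at low counts. In total 5 of 9 were called, 4 higher and 1 lower, where 45.9% of all genes were called, 23.0% higher and 22.9% lower. Stag3, Sycp3, Sycp1 and Hormad1 were not called, the last at an edgeR adjusted p of 0.0538.

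The calls of the 2 low genes rested on single libraries. Sycp2 lost its call with transcript length offsets (0.50, edgeR adjusted p = 0.356), and without J1 2i replicate 2 (edgeR adjusted p = 0.0855), J1 2i replicate 3 (edgeR adjusted p = 0.0628) or 3B3-3l 2i replicate 2 (edgeR adjusted p = 0.0842). Tex101 lost its call without any one of J1 2i replicates 1, 2 and 3 (edgeR adjusted p = 0.0996, 0.0588 and 0.0505) or of 3B3-3l 2i replicates 2 and 3 (edgeR adjusted p = 0.0937 and 0.144). Hormad1 was called without J1 2i replicate 3 (edgeR adjusted p = 0.0166), without 3B3-3l 2i replicate 2 (edgeR adjusted p = 0.0149) and with no filter on low counts (edgeR adjusted p = 0.0253). Tex15, Dazl and Smc1b kept their calls and directions under all alternatives, apart from the 2-fold threshold for Dazl.

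**Figure D4:**
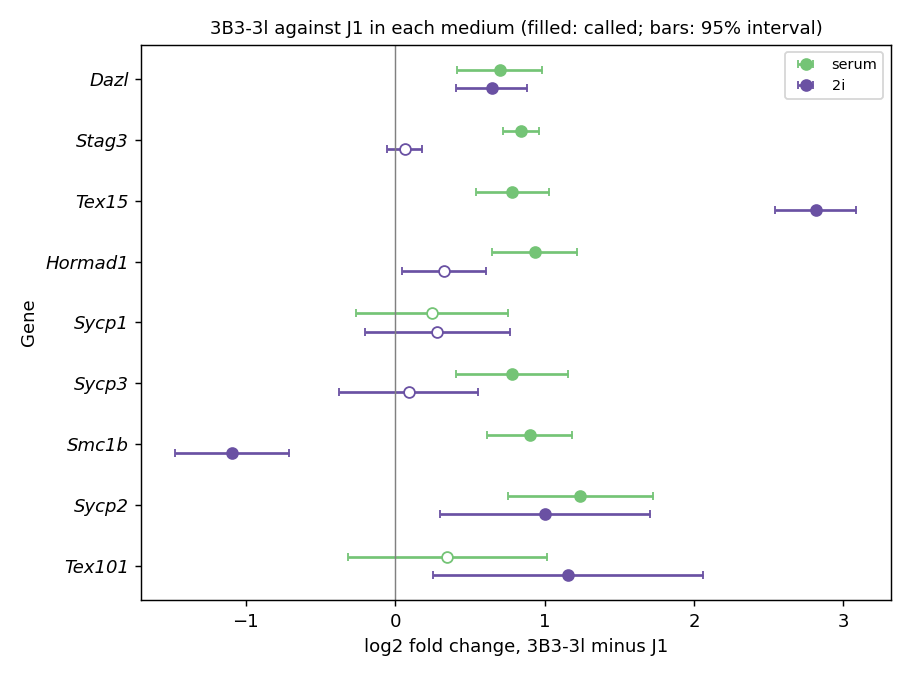
Log2 fold change of 3B3-3l against J1 for each gene in serum (green) and in 2i (purple), with 95% intervals from the edgeR fit (3 libraries a group). Filled points were called, and Smc1b lies at 0.90 in serum and -1.09 in 2i.

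To compare levels between genes, reads were divided by transcript length (CPM per kb of effective length). In J1 serum the order was Stag3 (25.2), Sycp3 (6.61), Hormad1 (4.49), Smc1b (2.02), Tex15 (1.89), Dazl (1.44), Tex101 (0.852), Sycp1 (0.843) and Sycp2 (0.119). Smc1b and Tex15, and Tex101 and Sycp1, overlapped between libraries. In 3B3-3l 2i the order was Stag3 (55.3), Hormad1 (6.53), Dazl (5.49), Tex15 (4.89), Sycp3 (2.83), Sycp1 (1.15), Tex101 (0.536), Smc1b (0.468) and Sycp2 (0.0736), with overlap between Hormad1 and Dazl, Dazl and Tex15, and Tex101 and Smc1b. In J1 2i, Dazl (3.68) and Sycp3 (2.78) overlapped, as did Smc1b, Sycp1 and Tex15 (1.04, 0.989 and 0.973). In 3B3-3l serum, Sycp3 (11.7) and Hormad1 (8.98) overlapped, as did Smc1b with Tex15, Tex15 with Dazl, and Tex101 with Sycp1. The effective length assigned to a gene varied between libraries by up to 2.01-fold for Sycp2 and 1.65-fold for Tex15, through the transcripts the reads were assigned to. Stag3 was the highest and Sycp2 the lowest of the 9 genes in all 4 groups.

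**Figure D5:**
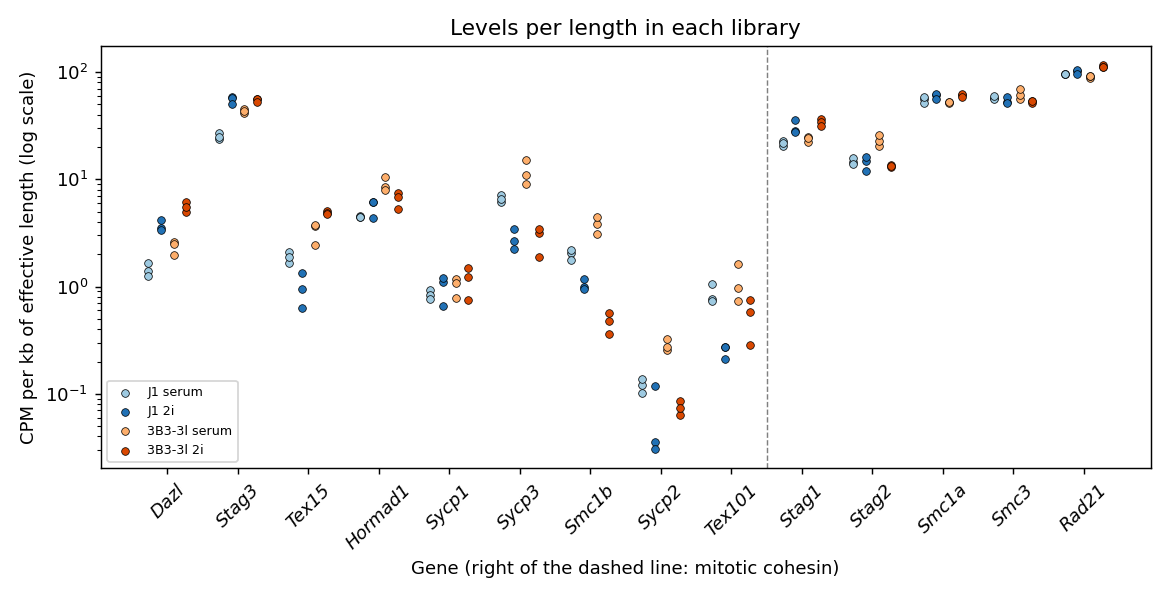
CPM per kb of effective transcript length (log axis) for the 9 meiosis genes and, right of the dashed line, 5 mitotic cohesin genes. Each dot is 1 library (3 a group), and Stag3 at 25.2 to 55.4 lies above Stag1 and Stag2 in every library, whereas Smc1b lies far below Smc1a.

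Per length, where all transcripts of a gene are summed, short ones and those that keep an intron included, Stag3 stood above both of its mitotic counterparts. In CPM it stood below both in J1 serum, at 62.8 against 84.8 (Stag1) and 70.2 (Stag2). Per length it was 172% ± 5.86 of Stag2 in J1 serum, 388% ± 35.0 in J1 2i, 189.6% ± 25.2 in 3B3-3l serum and 414% ± 21.1 in 3B3-3l 2i (SD, n = 3). Against Stag1, the other mitotic STAG subunit, it was 117% ± 15.2 in J1 serum, 183% ± 22.1 in J1 2i, 182% ± 17.4 in 3B3-3l serum and 162% ± 6.71 in 3B3-3l 2i. Smc1b was 3.64% ± 0.190 of Smc1a in J1 serum, 1.74% ± 0.148 in J1 2i, 7.23% ± 1.30 in 3B3-3l serum and 0.775% ± 0.193 in 3B3-3l 2i.

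Part of the Stag3 signal came from transcripts that keep an intron, which the annotation does not class as coding. These 2 of 9 transcripts took 18.7% ± 1.59 of Stag3 reads in J1 serum, 24.3% ± 2.47 in J1 2i, 23.3% ± 2.43 in 3B3-3l serum and 34.2% ± 0.236 in 3B3-3l 2i (SD, n = 3). The share was higher in 2i than in serum in each line and higher in 3B3-3l than in J1 in each medium, by 9.82 percentage points in 2i. Each of these 4 comparisons gave an exact two-sided permutation p of 0.1, the smallest that 3 libraries against 3 allow, and 0.2 after adjustment over 12 comparisons, so none could pass 0.05. The 12 comparisons also covered Sycp3 and Hormad1, where the mean share of such a transcript was lower in 2i than in serum in each line. In J1 serum and 2i it was 25.5% ± 11.8 and 10.7% ± 18.6 for Sycp3, and 3.73% ± 0.828 and 1.22% ± 0.282 for Hormad1. Transcripts that keep an intron share exons with the coding ones, and their shares are model estimates.

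Some genes lie over others in the genome. Sycp3 overlaps Chpt1, Smc1b overlaps Fam118a and Stag3 overlaps Gpc2, each on the opposite strand, and the stranded libraries were quantified with strand. Stag3 also overlaps Gal3st4, and Smc1b, Sycp1, Sycp2 and Hormad1 each overlap a predicted gene. Dazl, Tex15 and Tex101 overlap no other gene of the table used.

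Over the 12 libraries, the genes most like Dazl in log2 CPM were Lemd3 (Pearson r = 0.989), Ggnbp2 and Diap3 (0.985 each), among 13356 genes at a mean of 1 CPM or more. Those most like Stag3 were Inpp5b, Gm16241 and Grtp1 (0.987 each), and those most like Tex15 were Phf3 (0.986), Pabpc1 (0.985) and Etv1 (0.984). The 9 members were left out of this ranking. None of the genes found is among the other meiosis genes listed here, of which those under a mean of 1 CPM could not appear. The libraries form 4 groups, so such values mainly describe group means.

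Other meiosis genes, a list of 47 of which 38 were tested, also went both ways. In J1, 18 rose and 14 fell in 2i, where 33.2% of all genes were called higher and 32.9% lower. In 3B3-3l, 10 rose and 18 fell, where 32.7% were called in each direction, with median log2 changes of 0.08 and -0.14 against 0.01 over all genes in each line. Shoc1, a crossover factor, rose from 1.12 ± 0.121 to 4.41 ± 0.0990 CPM in J1 (edgeR adjusted p = 1.57e-09), and Stra8, which promotes entry into meiosis, rose from 3.36 ± 0.441 to 8.04 ± 1.08 CPM (edgeR adjusted p = 2.47e-07). Syce3, a central element of the synaptonemal complex, fell from 1.34 ± 0.247 to 0.0707 ± 0.0260 CPM (edgeR adjusted p = 1.35e-08), the direction of Sycp2 and Sycp3. Meiob, a partner of strand exchange, fell from 1.59 ± 0.127 to 0.147 ± 0.0444 CPM in J1 (edgeR adjusted p = 2.44e-07). In 3B3-3l it went from 1.67 ± 0.464 CPM to 0 counts in all 3 libraries, at least 22.9-fold lower against a floor of 3 counts per library (edgeR adjusted p = 8.86e-09). There Syce3 also fell (-2.61 ± 0.26), while Rec114, needed for meiotic breaks, rose from 4.47 ± 0.106 to 13.3 ± 0.792 CPM and Shoc1 by 1.34 ± 0.13 (edgeR adjusted p = 1.07e-07, 3.6e-10 and 2.2e-07).

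Between lines in serum, 10 of the 38 were higher in 3B3-3l and 4 lower, where 21.5% and 17.2% of all genes were. The 4 lower genes were Psmc3ip (-0.63 ± 0.07), Mnd1 (-0.47 ± 0.07), Mlh3 and Rec8 (the last 2 named after their values were seen). The highest were Majin (1.15 ± 0.23), a telomere tether, and Tex11 (1.04 ± 0.12), a crossover factor (edgeR adjusted p = 0.0011 and 6.54e-06). In 2i, 12 were higher and 12 lower, where 23.0% and 22.9% of all genes were, with Tex11 (0.98 ± 0.12) and Iho1 (0.91 ± 0.19) highest and Msh4 (-2.80 ± 0.52) and Cntd1 (-1.68 ± 0.13) lowest. For the difference between the 2i effects 6 were higher and 12 lower in 3B3-3l, where 16.3% and 18.3% of all genes were. Syce3 (1.65 ± 0.51) and Iho1 (0.67 ± 0.24) were highest (edgeR adjusted p = 0.0154 and 0.0421). Among those with an estimate, Msh4 was lowest (-2.71 ± 0.68, edgeR adjusted p = 0.00449). Meiob was also called lower (edgeR adjusted p = 0.00115). With 0 counts in 3B3-3l 2i it has no estimate, so its rank is not known.

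Of 21 genes known to keep germline genes silent, 11 rose and 8 fell in 2i in J1, and 12 rose and 5 fell in 3B3-3l, where 66.1% and 65.4% of all genes were called. The 5 that fell in 3B3-3l were Dnmt3a, Dnmt3l, Ehmt1, Ehmt2 and Trim28 (named after their values were seen, apart from the first 2). Both Dnmt3a alleles are disrupted in 3B3-3l, so its reads there do not stand for a working enzyme. Dnmt3l fell in 3B3-3l from 485 ± 32.9 CPM in serum to 290 ± 4.57 CPM in 2i, where J1 serum held 285 ± 0.413 CPM. Dnmt3a, Dnmt3b and Dnmt3l all fell in J1 in 2i, where Dazl and Stag3 rose and Sycp2, Sycp3, Smc1b, Tex15 and Tex101 fell. Dnmt3b was not called between the media in 3B3-3l (serum 891 ± 32.0 CPM, 2i 928 ± 12.7 CPM). With 2i in that line, Dazl, Stag3 and Tex15 rose, whereas Sycp2, Sycp3, Smc1b, Hormad1 and Tex101 fell. The part of these enzymes in the members' levels was not tested.

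Markers of other cells moved with the medium. The 12 feeder fibroblast markers summed to 59.04 to 63.7 CPM in J1 serum and 73.5 to 85.7 CPM in 3B3-3l serum, against 26.1 to 27.8 and 17.05 to 17.4 CPM in 2i. At or under 3 counts in every library of the group were 1 of the 12 in each serum group, 6 in J1 2i and 7 in 3B3-3l 2i, and Lum was at 0 in every J1 library. Over all tested genes, 33.2% were called higher and 32.9% lower in 2i in J1, and 32.7% each way in 3B3-3l. These shares also stand beside the counts of germ cell markers below. Of the 8 feeder markers tested, 6 fell and 1 rose in 2i in J1, and 7 fell and none rose in 3B3-3l. The one that rose was Pdgfrb, from 6.31 to 19.4 CPM in J1 (named after its values were seen). The sums are higher in the 3B3-3l serum libraries, which grew without feeders, than in J1 serum. The 6 primordial germ cell markers summed to 200.6 to 211 CPM in the serum libraries and 348 to 373 CPM in 2i. The higher sum in 2i came from Kit (59.5 and 281 CPM in J1 serum and 2i, 61.5 and 293 CPM in 3B3-3l), whereas in each line 4 of the 6 fell, Prdm1, Dppa3, Tfap2c and Dnd1, and 2 rose, Kit and Nanos3, with a median log2 change of -0.52 in J1 and -1.03 in 3B3-3l. The 9 markers of later germ cells summed to 141 to 161 CPM in serum and 84.4 to 116 CPM in 2i. The drop in the sum was mainly that of Uchl1 (103 and 68.0 CPM in J1, 96.6 and 27.0 CPM in 3B3-3l), and of the 6 tested 2 rose and 3 fell in J1, and 4 rose and 2 fell in 3B3-3l. The 5 markers of 2-cell-like cells in the table summed to 6.395 to 15.5 CPM in J1 serum, 1.094 to 1.54 in J1 2i, 6.92 to 7.62 in 3B3-3l serum and 3.799 to 5.29 in 3B3-3l 2i. The value of 15.5 was that of J1 serum replicate 1, which held 355 counts of Gm4340 where the other J1 serum replicates held 0. Those other replicates summed to 6.395 and 7.28 CPM. Their part in the medium differences of the 9 genes was not tested.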

How the data were processed

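RNA-seq libraries of J1 and 3B3-3l mESCs in serum or 2i were analysed, 12 in all, with 3 biological replicates in each of 4 groups taken from the sample labels. The authors quantified transcripts with Sailfish (strand-aware mode, mm10) and deposited a gene table of estimated counts summarised with tximport, unscaled for library size or length, and transcript tables with TPM and estimated counts, as deposited per library. Gene names came from a table that matched 85.6% of the identifiers. All tables were used except that TPM served only to check the order of levels.

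Estimated counts were rounded and tested with edgeR 4.0.16 in R 4.3.3 (TMM factors 0.97 to 1.038, filterByExpr, quasi-likelihood F test, 1 coefficient per group, all 12 libraries). All 9 genes passed the filter with 17885 genes tested, and a gene was called when its p, adjusted by Benjamini-Hochberg across these, was under 0.05. Log2 fold changes carry model standard errors. The biological coefficient of variation was 6.49%. A floor of 3 counts equals 0.0674 to 0.081 CPM, for counting error only, since reads carried no molecular identifiers. On simulated counts, the fit for J1 2i against serum found 89.7% of genes changed 1.5-fold, 95.6% of those changed 2-fold and 100% of those changed 4-fold. The simulation gave every gene the same coefficient of variation, near 6.49%, and changed only genes above a minimum mean count. Recovery for genes with fewer counts or a wider spread was not measured. CPM per kb used transcripts with an effective length of at least 50 bases. Coordinates are from RefSeq on GRCm38. Genes named beside the 9 were the targeted genes, mitotic cohesin genes, the 3 genes most like each of the 3 most abundant members (by CPM, not divided by length, which gives another order), and the 2 highest and 2 lowest called genes of the other meiosis list (mean of at least 0.5 CPM in a group).

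The 9 genes, the other lists and the tests were chosen with earlier results of these data known. Alternatives were DESeq2 1.42.0 (size factors and Wald test), no filter, at least 10 counts in every library, a replicate block and offsets for transcript length. Others were a 2-fold threshold, a fit restricted to the groups compared, and leaving out each library. The 2-fold threshold was a cut on the estimated change of called genes, not a test against a 2-fold change. The sequencing pool of each library is not given in the sources used here.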

Additional observations from a re-analysis of the deposited data

Results flagged for a closer look

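In all, 4 genes drew attention because the 2i effect differed between the lines by an interaction test in edgeR. Tex15 fell in J1 and rose in 3B3-3l, a difference of 2.03 on the log2 scale, and it was past the threshold under all alternatives tried. The 2i effect of Smc1b was more negative in 3B3-3l by a difference of -1.99, also past the threshold under all alternatives. That of Stag3 differed by -0.78, past the threshold under all alternatives apart from the 2-fold one. That of Hormad1 differed by -0.6, and this call was lost without J1 2i replicate 3 (-0.49, edgeR adjusted p = 0.0508), without 3B3-3l serum replicate 3 (-0.53, edgeR adjusted p = 0.0515) and with the 2-fold threshold. Causes of these differences were not tested.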

How the results depend on the processing

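Of 665 values of single genes under alternatives, 614 kept direction and side of the threshold, 29 lost a call, 9 gained one and 13 changed sign, none of these 13 on a called value. Leaving out each library in turn gave 7 to 8 called genes for 2i in J1, 6 to 8 for 2i in 3B3-3l, 7 for the lines in serum, 3 to 5 for the lines in 2i and 3 to 5 for the difference between 2i effects. The lowest for the lines in 2i, 3, came without J1 2i replicate 2. A 2-fold threshold left 4 called genes for 2i in 3B3-3l, 1 for the lines in serum and 2 for the difference. At least 10 counts in every library left 3 for the lines in 2i, with 7 of the 9 genes tested. All other alternatives kept these counts within 1.5 times.

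The sign of small uncalled values changed with the library left out. The line difference of Tex101 in serum ranged from -0.00647 (without 3B3-3l serum replicate 3) to 0.58, and that of Sycp3 in 2i from -0.051 to 0.28, at -0.02 without J1 2i replicate 3 and -0.00915 without 3B3-3l 2i replicate 1. The difference between 2i effects ranged from -0.21 to 0.027 for Dazl, from -0.20 to 0.24 for Sycp1 and from -0.47 to 0.21 for Sycp2, all with 1 library left out. With transcript length offsets that of Sycp2 was -0.74. With at least 10 counts in every library it was -0.000321 for Sycp1. The difference for Sycp3, not called at -0.69, was called with no filter, with the DESeq2 Wald test and without J1 2i replicate 3, 3B3-3l serum replicate 1 or 3B3-3l 2i replicate 3 (edgeR adjusted p = 0.0113 with no filter and 0.0449, 0.0248 and 0.0471 without these libraries, DESeq2 adjusted p = 0.0403). The cause was not tested.

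Replicate numbers are shared between groups, but 0 of 18 same-numbered pairs of libraries had deviations correlated above 0.1 (-0.118 to 0.062). None of the 12 libraries was nearest to its own number in every other group, though some were in a single group. With the replicate number as a block, the counts of called genes were 7, 8, 7, 5 and 4, the same as without it. The order of the 9 genes per length was the same in TPM in all 4 groups. Both measures divide the same reads by the same effective lengths, so this is no independent check. In the 150 bases nearest the start, 3 windows held the E-box and 3 the E2F letters, against 4.35% and 2.51% of all windows. Sycp2 and Tex101 had the fewest counts, which limits how small a change could be seen.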
